A study of Homo sapiens with 8 samples.

Results

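The RNA of 2 breast cancer cell lines was compared after depletion of XBP1, on the 2 arrays of MDA-MB-231 cells and the 2 arrays of T47D cells that carried a hairpin against XBP1 (shXBP1). These are 4 of the 8 arrays of the series, and the other 4 hold the same lines with a control hairpin (shCtrl), again at 2 arrays per line. They were chosen by their titles, and each gene was read from 1 probe set, the brightest of those that carry its symbol alone, which gave 19775 genes. T47D is a luminal, oestrogen receptor-positive line, and MDA-MB-231 is a triple-negative line with mesenchymal features. Both are established lines and each stands for itself, with 1 line of each kind. Cells of all 4 groups had been infected with lentivirus and kept under puromycin, and had then spent 24 h without glucose at 0.1% oxygen. The control arrays therefore also come from starved, hypoxic cells, and unstressed cells were not analysed here. The sources used here do not give the number of hairpins or their sequences. The labels call the replicates biological but do not tie them to infections or cultures of their own, and the spread behind every p-value is that of these arrays alone and may be technical.

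XBP1 belongs to the unfolded protein response, the programme that cells start when misfolded proteins gather in the endoplasmic reticulum (ER). The ER sensor IRE1 (ERN1) splices XBP1 mRNA, and the spliced form encodes an activator of genes for protein entry into the ER, folding, glycosylation and transport to the Golgi. The other arms run through PERK (EIF2AK3), which leads to translation of ATF4, and through ATF6. In breast tissue XBP1 is abundant in luminal, oestrogen receptor-positive cells. The comparison asks which differences between the lines are still there once XBP1 is depleted in both, which are lost and which are new.

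XBP1 itself checks the labels. Its log2 levels, the unit of all levels and differences below, were 12.41 and 12.56 on the T47D shCtrl arrays, 10.83 and 10.69 with shCtrl in MDA-MB-231, 7.52 and 7.16 with shXBP1 in T47D, and 7.13 and 6.69 with shXBP1 in MDA-MB-231. All 4 knockdown arrays lay below both control arrays of their line, and the knockdown arrays of MDA-MB-231 both lay under those of T47D. The difference between the lines, given throughout as MDA-MB-231 minus T47D, shrank from -1.73 (SE 0.17, adjusted p = 7.02e-05) to -0.43 (SE 0.17, adjusted p = 0.0747), a change of 1.30 (SE 0.25, adjusted p = 0.00745). Tests are from limma, with Benjamini-Hochberg adjustment over all genes, and a gene is called at an adjusted p under 0.05. The remaining gap in XBP1 was called when T47D shXBP1 replicate 2 or MDA-MB-231 shXBP1 replicate 1 was left out, and the level left after knockdown was not shown to be the same in both lines. As a mean over the 2 probe sets of XBP1 the line difference was -0.77 without and 0.09 with knockdown. Sizes given for single genes are those of the brightest probe set. Means over all probe sets are added for many genes whose log2 difference became more than 1.5 times larger or smaller, or whose call changed. A gene without a printed mean can still differ between its probe sets. The promoter of XBP1 is printed because it carries an ER stress response element, the site through which XBP1 and ATF6 are known to act, spelled as CCAAT, any 9 bases and CCACG, in capitals here. The sequence is from RefSeq on GRCh38.p14, chr22:28800520-28800819, minus strand, 5′ to 3′, from 250 bases before to 50 bases after the gene's start.
XBP1: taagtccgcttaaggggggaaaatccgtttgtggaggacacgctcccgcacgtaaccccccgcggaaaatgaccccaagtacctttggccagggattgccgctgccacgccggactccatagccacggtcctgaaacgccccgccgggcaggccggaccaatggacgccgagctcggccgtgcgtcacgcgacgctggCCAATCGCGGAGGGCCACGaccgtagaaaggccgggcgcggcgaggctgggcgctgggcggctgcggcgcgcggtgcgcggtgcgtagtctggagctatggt

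The arrays hold 54675 probe sets each, their medians lay between 5.87 and 5.91, and their number limits the precision. Replicate arrays correlated at 0.996 to 0.998 over the 19775 genes, against 0.877 to 0.880 between the lines after knockdown and 0.886 to 0.887 between them without it. Of 15 leukocyte markers 13 were measured, and 1 was called after knockdown (7.69%, all genes 50.8%). It was CSF1R, at 0.43 (SE 0.12, adjusted p = 0.0141), a call that was lost without T47D shXBP1 replicate 2 or MDA-MB-231 shXBP1 replicate 2. Of 15 fibroblast and endothelial markers 5 were higher in MDA-MB-231 (33.3%, all genes 25.9%) and 1 in T47D (6.67%, all genes 25.0%). Among them were COL5A1 (4.54) and FAP (3.24), which mesenchymal tumour cells can also express, and ACTA2 (-1.31, or -0.40 as a mean over probe sets). The 3′ to 5′ difference of the ACTB control probe sets, a sign of RNA quality, overlapped between the lines after knockdown. It was 0.973 and 1.265 on the T47D shXBP1 arrays and 0.893 and 1.104 on those of MDA-MB-231. With shCtrl the lines did not overlap, at 1.034 and 0.971 in T47D and 1.302 and 1.209 in MDA-MB-231. Both MDA-MB-231 shCtrl arrays also lay above both knockdown arrays of that line. For the GAPDH control probe sets the lines did not overlap after knockdown, at 0.283 and 0.157 in T47D and 0.304 and 0.32 in MDA-MB-231. With shCtrl these values overlapped, at 0.33 and 0.237 in T47D and 0.27 and 0.334 in MDA-MB-231. Whether RNA quality touched the line differences in either condition or the changes was not tested.

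After knockdown 10046 of the 19775 genes (50.8%) differed between the lines, 5112 of them higher in MDA-MB-231 (25.9%) and 4934 higher in T47D (25.0%). With the control hairpin 9683 genes (49.0%) had differed, 4692 higher in MDA-MB-231 (23.7%) and 4991 higher in T47D (25.2%). At a fold of at least 2 the calls were 4576 after knockdown, 2078 higher in MDA-MB-231 and 2498 in T47D. Most differences outlasted the loss of XBP1. In 7197 genes (36.4% of all tested) the line difference was called on both sides with the same sign, which is 74.3% of the differences seen with shCtrl and 71.6% of those seen with shXBP1. Of the 227 genes that differed by at least 5 log2 units with shCtrl all remained, and 175 of them still differed by that much. Across the 19775 genes the differences with and without knockdown had a Pearson r of 0.884 and a Spearman rank correlation of 0.734, over genes that share their arrays and are not independent.

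Other differences did not outlast it. The line difference vanished, called with shCtrl only, in 2006 genes (10.1%), appeared, called with shXBP1 only, in 2369 genes (12.0%), and reversed, called in both with opposite signs, in 480 genes (2.43%). A call on one side only does not show a change, so the change of the line difference was tested itself, as the difference after knockdown minus that without it. It was called in 4905 genes (24.8%), in 2579 towards MDA-MB-231 (13.0%) and in 2326 towards T47D (11.8%). Among the vanished differences 897 had a called change, among the appeared 1036 and among the reversed all 480. Of the 7197 remaining differences 4742 had no called change, 1413 widened and 1042 narrowed. In most of the genes whose difference vanished, appeared or reversed with a called change, the levels moved further in T47D than in MDA-MB-231, in 576 of 897, 662 of 1036 and 336 of 480. The reversals were small, with a median size of 0.524 before and 0.561 after knockdown, and 9 of the 480 were at least 2-fold on both sides. Without T47D shXBP1 replicate 2 there were 318 reversals. The median over all genes was 0.06 for the difference after knockdown, 0.01 without it and 0.05 for the change.

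**Figure D1:**
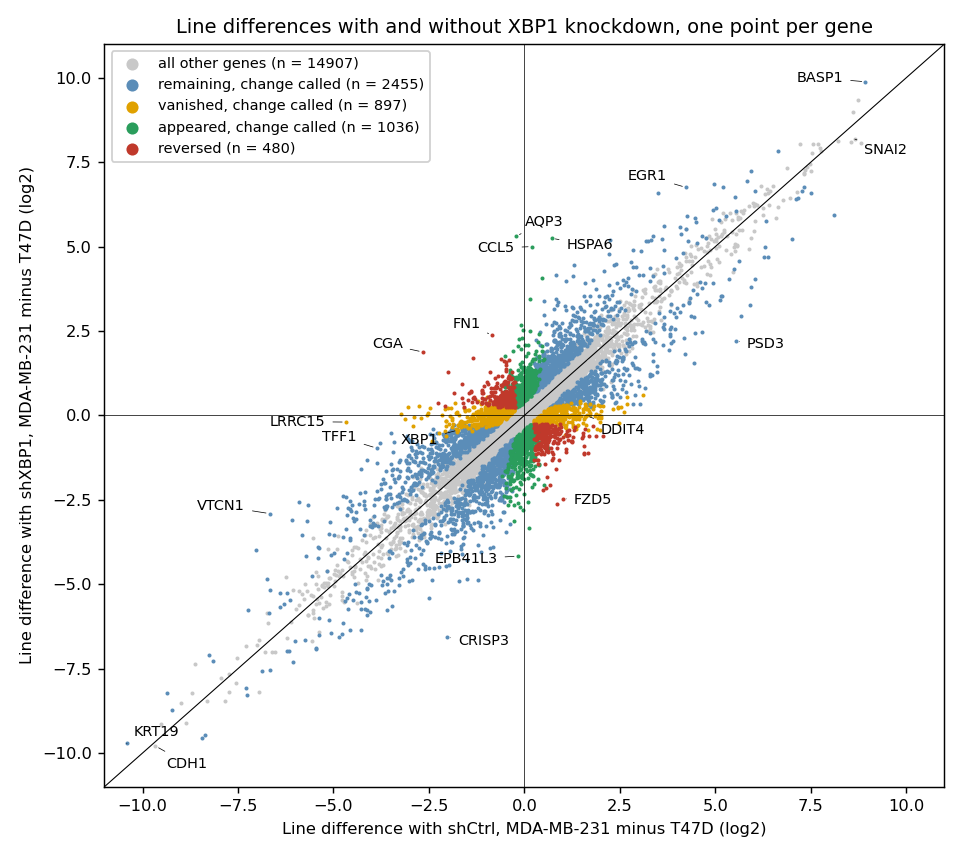
Each point is 1 of the 19775 genes, with the difference between the lines (MDA-MB-231 minus T47D, log2) with the control hairpin on the x axis and with the XBP1 hairpin on the y axis. The black diagonal marks no change, colours mark the genes whose difference changed and remained (2455), vanished (897), appeared (1036) or reversed (480), and the outer ends of the cloud, such as CDH1, KRT19, SNAI2 and BASP1, stay near the diagonal.

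The markers that tell a luminal from a mesenchymal cell kept their pattern. Of 31 luminal epithelial genes measured, 26 were higher in T47D after knockdown, against 28 with shCtrl and 25.0% of all genes, and the median difference of the list was -4.82 after and -5.12 before (all genes 0.06 and 0.01). The size of the difference changed towards MDA-MB-231 in 9 of them (29%, all genes 13.0%) and towards T47D in 5 (16.1%, all genes 11.8%). CDH1, which encodes the epithelial adhesion molecule E-cadherin, read 13.78 and 13.73 on the T47D knockdown arrays and 3.99 and 3.94 on those of MDA-MB-231, the latter close to the bottom of the scale. This is a difference of -9.79 (SE 0.27, adjusted p = 7.73e-08), against -9.66 with shCtrl, with a change that was not called (-0.13, adjusted p = 0.847). KRT19, a keratin of simple epithelium, differed by -9.72, GATA3, a master regulator of luminal fate, by -9.15, AGR2, an ER disulphide isomerase of secretory epithelium, by -8.52, and EPCAM, an epithelial surface protein, by -8.46. In the brightest probe set the change was called for KRT19, towards MDA-MB-231, and not for GATA3, AGR2 or EPCAM. ESR1, the oestrogen receptor, stayed at -5.70 (-5.29 without knockdown) and its pioneer factor FOXA1 at -3.75 (-3.44). The iron exporter SLC40A1 and AGR3, a paralogue of AGR2, parted further, from -8.45 to -9.55 and from -8.38 to -9.45, both with a called change (adjusted p = 0.00168 and 0.0017). As means over probe sets, the changes of SLC40A1 (-0.16, adjusted p = 0.607) and KRT19 (0.28, adjusted p = 0.183) were not called. Those of AGR2 (1.08, adjusted p = 0.00388) and EPCAM (-0.605, adjusted p = 0.0447) were called in that setting. Means over probe sets also gave smaller differences after knockdown, -6.41 for CDH1, -5.05 for KRT19, -5.58 for SLC40A1 and -2.44 for FOXA1, and for ESR1, which has 9 probe sets, -0.74 after and -1.03 before.

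The mesenchymal side held as well. Of 35 basal and mesenchymal genes measured, 28 were higher in MDA-MB-231 both with and without knockdown, against 25.9% of all genes after it, and the median difference was 3.26 after and 2.58 before. The change was called in 5 towards MDA-MB-231 (14.3%) and 4 towards T47D (11.4%), near the 13.0% and 11.8% of all genes. VIM, the intermediate filament of mesenchymal cells, read 6.78 and 6.88 on the T47D knockdown arrays and 14.65 and 14.67 on those of MDA-MB-231. Its difference of 7.83 (SE 0.16, adjusted p = 2.37e-08) stood beside 7.76 with shCtrl. SNAI2, a repressor of epithelial genes, differed by 8.18, the caveolar protein CAV2 by 7.91, the membrane linker MSN by 8.04 and ZEB1, another repressor of CDH1, by 6.69, none with a called change. In the brightest probe sets the largest difference towards MDA-MB-231 was that of BASP1, at 9.88 (SE 0.16, adjusted p = 1.14e-08). BASP1 widened with a called change. The call was lost without T47D shXBP1 replicate 2, MDA-MB-231 shCtrl replicate 1 or either MDA-MB-231 shXBP1 array, and as a mean over probe sets (0.23, adjusted p = 0.323). BASP1 was followed by GPX1, a glutathione peroxidase, at 9.33 and by TCIM at 8.99. As means over probe sets GPX1 and TCIM lay above BASP1, with 5.03 for BASP1, 4.23 for MSN, 4.90 for CAV2 and 3.49 for ZEB1, and the shCtrl difference of VIM was 4.95 with a called change of 0.98 (adjusted p = 0.0294).

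Some markers of identity did move. KRT8 and KRT18, the keratin pair of luminal cells, lost their line difference. KRT8 read 15.07 and 15.11 in T47D and 13.19 and 13.19 in MDA-MB-231 with shCtrl, and 13.85 and 13.68 against 13.74 and 13.62 with shXBP1. The groups were far apart before knockdown and interleaved after it, and the difference went from -1.90 to -0.08 (adjusted p = 0.542), a change of 1.82 (SE 0.14, adjusted p = 0.00022). For KRT18 it went from -0.93 to 0.13 (adjusted p = 0.22), a change of 1.06 (adjusted p = 0.000729). TFF1, a secreted peptide induced by oestrogen, kept a difference but a much smaller one, from -3.87 to -0.97, with falling levels in T47D and rising ones in MDA-MB-231 (-1.60 and 1.30). NAT1 narrowed from -4.53 to -2.66, and the transcription factor TFAP2B, at -0.22 with shCtrl, appeared at -2.12. Among mesenchymal genes ANXA1, which encodes annexin A1, narrowed from 5.91 to 3.26 as it rose in T47D (2.71), and CCN2, a matricellular growth factor, widened from 2.22 to 4.79 as it fell in T47D (-2.58). AXL, a receptor kinase, narrowed from 5.19 to 3.55 (adjusted p of the change 0.0413), a call lost when T47D shCtrl replicate 2, T47D shXBP1 replicate 1 or any MDA-MB-231 array was left out. Averaged over probe sets, TFAP2B appeared at -0.77 and AXL narrowed from 3.31 to 2.37.

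**Figure D2:**
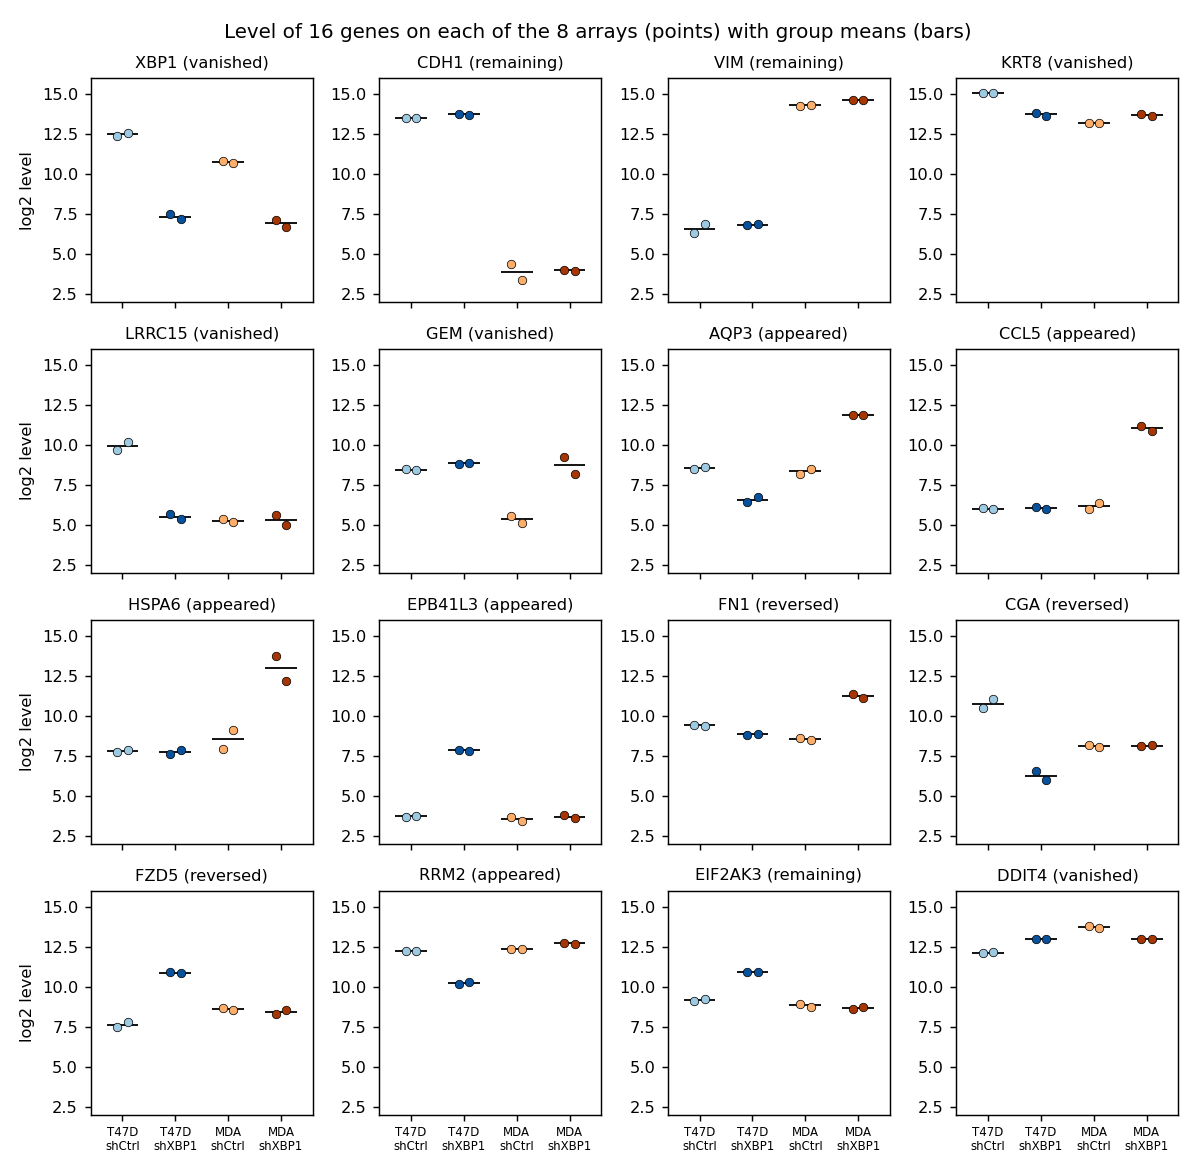
The log2 level of 16 genes is shown on each of the 8 arrays, as points, with a bar for the mean of each group of 2 arrays, T47D in blue and MDA-MB-231 (MDA) in orange, paler with shCtrl and darker with shXBP1. The panels show the patterns described in the text, such as XBP1 low on all 4 knockdown arrays, KRT8 level between the lines after knockdown, and AQP3 and CCL5 high on the 2 MDA-MB-231 shXBP1 arrays.

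Some differences vanished by a fall in T47D to the level of MDA-MB-231. LRRC15, a membrane protein with leucine-rich repeats, read 9.66 and 10.21 in T47D with shCtrl, 5.67 and 5.35 with shXBP1, and between 4.99 and 5.64 on the 4 MDA-MB-231 arrays. The lines did not overlap with shCtrl and overlapped with shXBP1. Its difference went from -4.68 to -0.20 (adjusted p = 0.561), a change of 4.48 (SE 0.35, adjusted p = 0.000254). The long noncoding RNA LINC01588 (-3.06 to 0.24) and TNNC1, a calcium-binding troponin (-2.46 to 0.21), followed the same course, with falls in T47D of -2.85 and -2.54. Averaging over probe sets gave shCtrl differences of -2.22 for LRRC15 and -1.91 for LINC01588. In a further group the gap closed from the other side. SPC25, a kinetochore subunit, read 8.72 and 8.83 in T47D and 5.89 and 6.23 in MDA-MB-231 with shCtrl, and 8.14 and 8.26 against 8.10 and 8.18 with shXBP1. It rose in MDA-MB-231 by 2.07 (adjusted p = 0.000153) and the difference went from -2.71 to -0.07 (adjusted p = 0.714). GEM, a small GTPase, went from -3.13 to -0.12, with a rise in MDA-MB-231 of 3.39. GEM kept a called difference without MDA-MB-231 shXBP1 replicate 1, and its 2 arrays there read 9.26 and 8.20.

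Genes higher in MDA-MB-231 with shCtrl lost their lead mostly by rising in T47D. FRMD6, a regulator of the Hippo pathway, read 7.71 and 7.70 in T47D and 10.38 and 9.96 in MDA-MB-231 with shCtrl, and 9.68 and 9.70 against 9.49 and 9.45 with shXBP1. The order of the lines turned over on the arrays, but the difference after knockdown, -0.22, was not called (adjusted p = 0.228), and the change was -2.68 (SE 0.19, adjusted p = 0.000196). PDP1, a phosphatase that activates pyruvate dehydrogenase, went from 2.45 to 0.23 and the transcription factor KLF5 from 2.69 to 0.33, and both were called as remaining under some other settings, KLF5 without T47D shXBP1 replicate 1 or as a mean over probe sets (0.45, adjusted p = 0.00484). The cytokine IL20 went from 3.12 to 0.59 (adjusted p = 0.0804), with a fall in MDA-MB-231 of -2.17, and its difference was called without MDA-MB-231 shXBP1 replicate 2.

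The largest new difference in the brightest probe sets was that of AQP3, a water and glycerol channel. It read 8.52 and 8.61 in T47D and 8.20 and 8.51 in MDA-MB-231 with shCtrl, and 6.44 and 6.72 against 11.88 and 11.88 with shXBP1. The lines lay next to each other with shCtrl, without overlap, and far apart with shXBP1, as the gene fell in T47D (-1.99) and rose in MDA-MB-231 (3.53). The difference after knockdown was 5.31 (SE 0.14, adjusted p = 5.87e-08), against -0.21 (adjusted p = 0.242) without it, and 3.15 as a mean over its 3 probe sets, which is below CCL5 and HSPA6. CCL5, a chemokine that draws T cells, was dim on 6 arrays (5.98 to 6.39) and read 11.22 and 10.91 with shXBP1 in MDA-MB-231. The difference after knockdown was called (adjusted p = 1.26e-07), with a change of 4.81 (SE 0.22, adjusted p = 6.4e-05). The other 6 arrays lie near the median of all probe sets, so the size is limited by the bottom of the scale, and as a mean over 3 probe sets a difference was called with shCtrl too (0.47, adjusted p = 0.00949). MFAP5, a microfibril protein, appeared at 4.08, the Ras-related GTPase RASD1 at 3.45 and the complement component C3 at 2.26, each from a rise in MDA-MB-231 (3.43, 3.63 and 2.21) without a called change in T47D. MFAP5 had a called difference with shCtrl as well when either MDA-MB-231 shXBP1 array was left out.

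Some new differences towards T47D were in genes that were dim in both lines with shCtrl and rose in T47D. EPB41L3, a membrane skeleton protein, read 3.68 and 3.73 in T47D with shCtrl, 7.88 and 7.81 with shXBP1, and between 3.41 and 3.77 on the 4 MDA-MB-231 arrays. Only the T47D knockdown arrays stood above the rest, and the difference after knockdown was -4.17 (SE 0.11, adjusted p = 7.39e-08), against -0.18 (adjusted p = 0.246). LRRC31 (-3.13), NCKAP5 (-2.71) and the syntaxin STX19 (-2.61) followed, and LRRC31 had a called difference with shCtrl when T47D shCtrl replicate 2 was left out. In the zinc finger gene ZNF292 the lines moved apart, with levels of 10.59 and 10.57 in T47D and 7.17 and 7.33 in MDA-MB-231 after knockdown, from between 9.61 and 9.95 on the 4 shCtrl arrays. Its difference of -3.33 (SE 0.12, adjusted p = 2.49e-07), or -2.13 as a mean over probe sets, was new. SESN2, a stress-induced inhibitor of the growth kinase mTORC1 and a target of ATF4, read 8.79 and 8.89 in T47D and 9.10 and 8.79 in MDA-MB-231 with shCtrl, and 10.42 and 10.22 against 7.67 and 7.85 with shXBP1. The difference of -2.56 (SE 0.13, adjusted p = 1.57e-06) again came from a rise in T47D (1.48) and a fall in MDA-MB-231 (-1.18).

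Of the reversed differences, those towards MDA-MB-231 were led by CGA, the common alpha subunit of glycoprotein hormones. It read 10.50 and 11.07 in T47D and 8.17 and 8.06 in MDA-MB-231 with shCtrl, and 6.54 and 5.99 against 8.11 and 8.17 with shXBP1. T47D lay above MDA-MB-231 on the control arrays and below it on the knockdown arrays, and the difference turned from -2.66 (adjusted p = 2.26e-05) to 1.88 (SE 0.22, adjusted p = 0.000162). EPAS1, which encodes the hypoxia factor HIF-2alpha, did the same, from 12.98 and 13.07 to 10.47 and 10.44 in T47D against 11.32 to 11.45 on the 4 MDA-MB-231 arrays, or -1.64 to 0.93. FN1, the matrix protein fibronectin and a mesenchymal marker, was higher in T47D with shCtrl, at 9.45 and 9.40 against 8.63 and 8.52. With shXBP1 it read 8.84 and 8.89 in T47D and 11.35 and 11.13 in MDA-MB-231, so that the difference of -0.85 became 2.38 (SE 0.10, adjusted p = 6.25e-07). As means over probe sets these reversals were smaller but called, -1.23 to 0.95 for CGA, -0.67 to 0.59 for EPAS1 and -0.48 to 1.60 for FN1. S100A14, a calcium-binding protein of epithelia, turned from -1.99 to 1.28 and the stress-inducible IER5 from -1.35 to 1.70. SSR1, a subunit of the translocon-associated complex of the ER, turned from -2.27 to 0.38 (adjusted p = 0.0218), as it rose in MDA-MB-231 by 2.14. Its new sign was no longer called when either T47D shXBP1 array or MDA-MB-231 shXBP1 replicate 2 was left out, and 1 of its 6 probe sets was called the other way, with a shCtrl difference of -1.44 as a mean over them.

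In the brightest probe sets reversals towards T47D were led by FZD5, a receptor for Wnt ligands. It read 7.50 and 7.78 in T47D and 8.69 and 8.59 in MDA-MB-231 with shCtrl, and 10.94 and 10.88 against 8.33 and 8.56 with shXBP1. Here too T47D crossed over, with a rise of 3.27, and the difference turned from 1.00 to -2.47 (SE 0.13, adjusted p = 1.39e-06). CPEB2, a regulator of mRNA translation, turned from 0.84 to -2.61, HEY2, a target of Notch signalling, from 0.56 to -2.16 and the repressor KLF3 from 1.57 to -1.14. ZBTB34 (0.67 to -2.06) and NACC2 (1.67 to -1.11), both of the BTB family of nuclear proteins, completed the group. In all 6 the level rose in T47D, by 2.31 to 3.46. NACC2 had a second probe set called the other way after knockdown. As means over probe sets FZD5 and HEY2 had no called difference with shCtrl (0.15, adjusted p = 0.21, and 0.28, adjusted p = 0.0504), so that theirs appeared rather than reversed. After knockdown the means were -1.06 for CPEB2 and -0.31 for NACC2.

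Among the differences that remained, some changed in size strongly. The folate receptor FOLR1 went from 1.31 to 4.46 and the growth regulator CCN5 from 0.83 to 4.16, in each case by a fall in T47D (-1.66 and -2.09) and a rise in MDA-MB-231 (1.49 and 1.24). IL7R, the receptor of interleukin 7, read 4.62 and 4.59 in T47D and 9.80 and 9.79 in MDA-MB-231 after knockdown, against 6.63 and 6.73 in MDA-MB-231 before, and widened from 2.24 to 5.19. On the T47D side CRISP3, a secreted protein of exocrine glands, read 10.22 and 10.14 with shXBP1, up from 5.11 and 6.30, and lay between 3.50 and 3.79 in MDA-MB-231, so that -2.03 became -6.58 (SE 0.33, adjusted p = 1.23e-06). The signalling protein RASGRP1 widened from -1.23 to -4.89. EREG, which encodes the EGF receptor ligand epiregulin, widened from -1.50 to -4.84 with a rise of 3.46 in T47D. VTCN1, an inhibitory immune ligand of the B7 family, narrowed from -6.67 to -2.91 as T47D went from 11.62 and 11.67 to 7.96 and 7.84, and HSD17B1, an enzyme that makes oestradiol, narrowed from -5.89 to -2.58. MGP, an inhibitor of calcification, narrowed from -7.04 to -3.98 by a rise in MDA-MB-231 of 2.79. From the side of MDA-MB-231, COL5A2 narrowed from 5.68 to 2.95 and PSD3 from 5.54 to 2.20. As means over probe sets the differences after knockdown were 2.56 for FOLR1, -2.38 for EREG and -1.45 for HSD17B1.

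Many known targets of XBP1 lie in the secretory pathway. Of 29 N-glycosylation genes measured 14 were higher in T47D with shCtrl and 8 after knockdown, and the change was called by limma towards MDA-MB-231 in 13 and towards T47D in 0 (0 at an unadjusted p under 0.05), against 13.0% and 11.8% of all genes. The median change of the list was 0.37 (all genes 0.05). ALG14, ALG6 and MOGS, which build or trim the sugar chain, showed no called difference with shCtrl (-0.05, 0.15 and -0.21) and were higher in MDA-MB-231 after knockdown (1.44, 1.40 and 1.13). ALG14 read 8.02 and 8.17 in T47D and 9.50 and 9.57 in MDA-MB-231 with shXBP1, from between 8.89 and 8.98 on all shCtrl arrays. As a mean over probe sets ALG14 differed by 0.81. DPAGT1, the enzyme of the first step, narrowed from -2.12 to -0.72 by a fall in T47D of -1.21. Of 31 genes of ER to Golgi transport 14 were higher in T47D with shCtrl and 10 with shXBP1, the change was called towards MDA-MB-231 in 11 and towards T47D in 3, and the latter count was 1 when T47D shCtrl replicate 1, T47D shXBP1 replicate 2 or MDA-MB-231 shCtrl replicate 1 was left out. KDELR3, a receptor that returns escaped ER proteins, read 8.71 and 9.02 in T47D with shCtrl, 7.32 and 7.71 with shXBP1, and between 10.19 and 10.52 on the 4 MDA-MB-231 arrays. The lines were apart in both conditions and the difference widened from 1.34 to 2.93 (SE 0.16, adjusted p = 1.74e-06), with a change of 1.60 (SE 0.22, adjusted p = 0.00187), or 0.95 as a mean over probe sets. SEC23B, a coat protein of the vesicles that leave the ER, went from -2.06 to -0.31 (adjusted p = 0.174), by a rise in MDA-MB-231 of 1.53, but its 2 arrays there read 10.56 and 11.10 and the difference was called without MDA-MB-231 shXBP1 replicate 2 and as a mean over probe sets (-0.77, adjusted p = 0.000262).

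The KDELR3 promoter shows the core of the unfolded protein response element to which XBP1 is known to bind, TGACGTGG, on the strand opposite to the one printed, in capitals. It lies at chr22:38467846-38468145, plus strand, in RefSeq on GRCh38.p14, and the match starts at position -46 from the gene's start.
KDELR3: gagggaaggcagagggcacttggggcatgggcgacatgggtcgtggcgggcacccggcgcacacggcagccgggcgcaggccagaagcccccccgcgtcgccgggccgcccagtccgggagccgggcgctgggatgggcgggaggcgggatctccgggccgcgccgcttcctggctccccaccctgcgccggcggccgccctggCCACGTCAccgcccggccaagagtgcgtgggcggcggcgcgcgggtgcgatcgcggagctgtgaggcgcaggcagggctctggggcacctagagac
Counting the letters on either strand, 7 of the 29 ER to Golgi genes with a promoter in the table (24.1%) held this core, against 0.962% of the 15384 tested genes with a promoter. The longer ER stress response element printed for XBP1 was found in 6 of 23 ER chaperones and folding enzymes (26.1%) and in 0.104% of all. Where the line difference had vanished with a called change towards MDA-MB-231, 6 of 397 promoters (1.51%) held the core. Where it had vanished towards T47D, the count was 5 of 335 (1.49%). Among appeared differences with a called change the counts were 2 of 424 (0.472%) towards MDA-MB-231 and 1 of 427 (0.234%) towards T47D. Both elements hold the letters CCACG, and a match is a description of the letters that shows no binding.

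Of 25 ER chaperones and folding enzymes 6 were higher in MDA-MB-231 and 9 in T47D with shCtrl, and 8 and 12 after knockdown, the 8 being 5 without T47D shXBP1 replicate 2. The change was called in 2 towards MDA-MB-231 and 1 towards T47D. The first of these counts was 1 when any array but MDA-MB-231 shXBP1 replicate 2 was left out, and the second ranged from 0 to 2 when single arrays were left out. Over all alternative settings at the same threshold the first ranged from 1 to 7 and the second from 0 to 5. HSPA5, the central ER chaperone BiP, read 14.24 and 14.23 in T47D and 13.80 and 13.63 in MDA-MB-231 with shXBP1, against 14.64 and 14.77, and 14.53 and 14.53, with shCtrl. It fell in both lines (-0.47 and -0.82). The difference after knockdown of -0.52 (SE 0.10, adjusted p = 0.00229) was called and that with shCtrl was not (-0.17, adjusted p = 0.188), but the change of -0.34 was not called either (adjusted p = 0.111). As a mean over its 2 probe sets the picture turned, with -0.08 after knockdown (adjusted p = 0.637), -0.77 with shCtrl (adjusted p = 0.000755) and a change of 0.70 (adjusted p = 0.0208). DNAJB9, a BiP cofactor and XBP1 target, also fell in both lines (-0.46 and -0.87) and kept its difference, -1.37 before and -1.78 after. Of 22 genes of protein entry into the ER 11 were higher in T47D with shCtrl and 7 with shXBP1, the latter 4 without T47D shXBP1 replicate 1. The change was called in 8 towards MDA-MB-231, a count of 3 to 5 without 1 of the arrays other than MDA-MB-231 shXBP1 replicate 2, and in 3 towards T47D, a count of 1 without any array but T47D shCtrl replicate 2. Of 20 genes of ER-associated degradation 9 were higher in T47D with shCtrl and 8 with shXBP1, and the change was called in 6 towards MDA-MB-231 (30%) and 3 towards T47D (15%), against 13.0% and 11.8% of all genes. The 3 became 1 when any T47D array or MDA-MB-231 shCtrl replicate 1 was left out. EDEM2, which helps pick misfolded glycoproteins, appeared at 1.31 towards MDA-MB-231 with a fall in T47D of -1.01. DERL1 was read as reversed (-0.82 to 0.34), but 3 of its 4 probe sets were called the other way after knockdown, and the call after knockdown was lost when any array but a T47D shCtrl one was left out.

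Of 20 sensors and factors of the unfolded protein response the change was called towards T47D in 7 (35%) and towards MDA-MB-231 in 4 (20%), against 11.8% and 13.0% of all genes, the shares that also stand behind the lists below. The 7 became 4 as means over probe sets, and the 4 became 7 when dim genes were left out. ERN1, the sensor that splices XBP1, read 9.14 and 9.15 in T47D with shCtrl, 10.75 and 10.72 with shXBP1, and between 5.86 and 6.25 on all MDA-MB-231 arrays. It was well above MDA-MB-231 in both conditions, and the difference widened from -3.19 to -4.56 (SE 0.10, adjusted p = 3.4e-08), with a change of -1.37 (SE 0.14, adjusted p = 0.000639), although 1 of its 3 probe sets was called the other way for the change. As a mean over them ERN1 differed by -1.54 after knockdown and its change was not called (-0.16, adjusted p = 0.583). EIF2AK3, which encodes PERK, read 10.97 and 10.95 in T47D after knockdown, up from 9.13 and 9.25, and lay between 8.64 and 8.95 in MDA-MB-231. Its difference went from -0.34 (adjusted p = 0.0268, not called without T47D shCtrl replicate 2 or MDA-MB-231 shCtrl replicate 2) to -2.25 (SE 0.10, adjusted p = 7.96e-07), or -1.18 as a mean over probe sets. DDIT3, the stress factor CHOP, widened from -1.65 to -3.36 by a fall in MDA-MB-231 of -1.29. Of 30 ATF4 targets 12 were higher in T47D with shCtrl and 17 with shXBP1, and the change was called towards T47D in 11 (36.7%) and towards MDA-MB-231 in 6 (20%). VLDLR, a lipoprotein receptor, widened from -0.46 to -2.22, the former not called without T47D shCtrl replicate 1 or MDA-MB-231 shCtrl replicate 2. The list did not move as a block. CTH, an enzyme of cysteine synthesis, went the other way, from 2.43 to 3.92 (change 1.49, adjusted p = 0.00142), with a fall in T47D of -1.75, and STC2, a secreted glycoprotein, narrowed from -3.43 to -2.63 (adjusted p of the change 0.0348, not called when any T47D array, MDA-MB-231 shCtrl replicate 2 or MDA-MB-231 shXBP1 replicate 1 was left out, or as a mean over probe sets, 0.43).

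**Figure D3:**
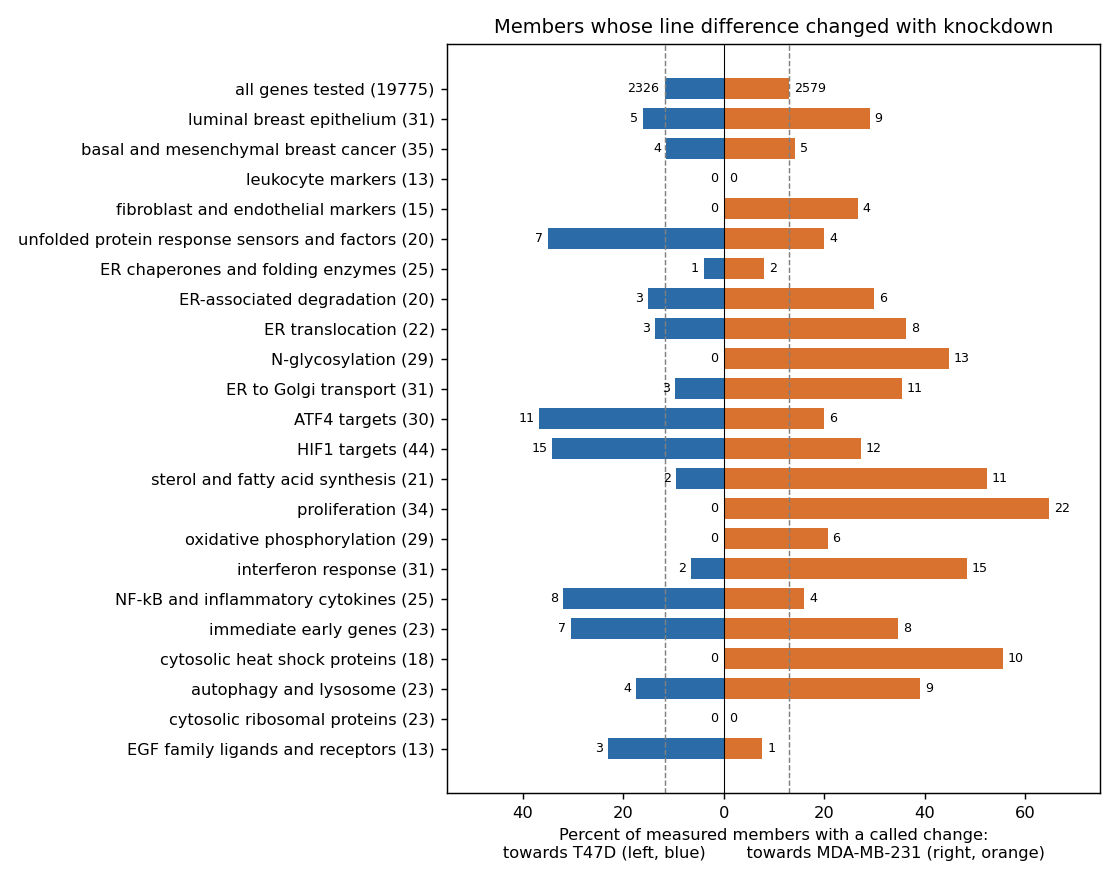
Bars give the percent of the measured members of each gene list (number in brackets) whose line difference changed with knockdown, towards T47D on the left and towards MDA-MB-231 on the right, with the counts at the bar ends. Dashed lines mark all 19775 genes (11.8% towards T47D and 13.0% towards MDA-MB-231). In the same order the counts were 0 and 22 for proliferation, 0 and 10 for heat shock proteins and 0 and 13 for N-glycosylation. Oxidative phosphorylation (0 and 6) and the fibroblast and endothelial markers (0 and 4) also had called changes in 1 direction only. The 4 became 2 without MDA-MB-231 shCtrl replicate 1 or MDA-MB-231 shXBP1 replicate 1. At the same threshold other settings gave up to 1 call towards T47D for heat shock proteins, N-glycosylation and oxidative phosphorylation. For the fibroblast and endothelial markers they gave up to 2.

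Hypoxia genes were higher in T47D before and after. Of 44 targets of HIF1, the factor that oxygen lack stabilises, 28 were higher in T47D with shCtrl and 30 with shXBP1, against 25.2% and 25.0% of all genes, and the median difference was -0.58 and -0.97. The change was called towards T47D in 15 (34.1%) and towards MDA-MB-231 in 12 (27.3%), the latter 7 without T47D shCtrl replicate 1 or either T47D shXBP1 array. VEGFA, the angiogenic growth factor, read 12.90 and 12.93 in T47D and 11.32 and 11.08 in MDA-MB-231 with shCtrl, and 13.42 and 13.26 against 10.46 and 10.52 with shXBP1. Its levels rose in T47D (0.42) and fell in MDA-MB-231 (-0.71), and the difference widened from -1.72 to -2.85 (SE 0.11, adjusted p = 3.61e-07). The difference also widened for KDM3A, a histone demethylase (-0.40 to -2.43), and PDK1, a kinase that inhibits pyruvate dehydrogenase (-0.65 to -2.44). That of HK2, a hexokinase, went from -0.61 to -2.49, and each of these genes rose in T47D and fell in MDA-MB-231. For HK2, 2 of 3 probe sets were called the other way after knockdown, and as a mean its difference was -0.31 and its change not called (-0.24, adjusted p = 0.194). Averaged in this way, KDM3A and PDK1 had no called difference with shCtrl (-0.08 and -0.29), and KDM3A differed by -1.52 after knockdown. PFKFB3, a driver of glycolysis, widened from -2.45 to -3.44 with a fall in MDA-MB-231 alone (-1.11, and -0.11 with adjusted p = 0.48 in T47D). DDIT4, an inhibitor of mTORC1, is shared with the ATF4 list and read 12.11 and 12.20 in T47D and 13.81 and 13.73 in MDA-MB-231 with shCtrl, and 12.99 and 13.02 against 13.00 and 13.00 with shXBP1. The lines met after knockdown, with a difference of 1.62 before and -0.01 after (adjusted p = 0.967). The glucose transporter SLC2A3 lay at 6.95 towards MDA-MB-231 (5.82 before), while SLC2A1 stayed at -0.62 (-0.86 before), with 1 of its 2 probe sets called the other way and a mean over them of 0.070 (adjusted p = 0.739). HIF1A itself differed by -0.35 after knockdown (adjusted p = 0.0101), a call lost without T47D shXBP1 replicate 2.

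Genes of the cell cycle pulled apart. Of 34 proliferation genes 22 were higher in MDA-MB-231 and 4 in T47D with shCtrl, the latter 2 without T47D shCtrl replicate 1 or MDA-MB-231 shCtrl replicate 1. After knockdown limma called 31 higher in MDA-MB-231 and 0 in T47D (0 at an unadjusted p under 0.05), and the change towards MDA-MB-231 in 22 (64.7%) and towards T47D in 0 (0 at an unadjusted p under 0.05). The median difference went from 0.52 to 1.48, with a median change of 0.89 (all genes 0.05). RRM2, a subunit of the enzyme that makes DNA precursors, read 12.23 and 12.24 in T47D and 12.41 and 12.38 in MDA-MB-231 with shCtrl, and 10.16 and 10.29 against 12.76 and 12.70 with shXBP1. A gap of 0.16 that was not called (adjusted p = 0.178) became 2.50 (SE 0.09, adjusted p = 2.15e-07), mostly by a fall in T47D of -2.01. TOP2A, the topoisomerase of dividing cells, fell in both lines, by -3.10 in T47D and -1.72 in MDA-MB-231, and its difference went from 0.51 to 1.89. The checkpoint kinase BUB1 widened from 2.09 to 3.36, the replication licensing factor CDC6 from 1.53 to 2.76 and the thymidylate synthase TYMS from 1.40 to 2.37, each with a fall in T47D and no called change in MDA-MB-231. Averaged over probe sets, BUB1 widened from 1.06 to 1.68 and the change of TOP2A was 0.87. UBE2C, a ubiquitin enzyme of mitotic exit, read 11.98 and 12.03 in T47D and 10.09 and 10.21 in MDA-MB-231 with shCtrl, and 11.22 and 11.27 against 11.99 and 11.84 with shXBP1. It was reversed, from -1.86 to 0.67 (SE 0.09, adjusted p = 0.000437), with a rise in MDA-MB-231 of 1.77. In RNA of whole cultures, fewer cycling cells and less of these transcripts per cell cannot be told apart.

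Cytosolic heat shock genes moved in the same direction. Of 18 measured 10 were higher in MDA-MB-231 and 5 in T47D with shCtrl, 14 and 2 with shXBP1, and the change was called by limma towards MDA-MB-231 in 10 (55.6%) and towards T47D in 0 (1 at an unadjusted p under 0.05, and 1 call without MDA-MB-231 shXBP1 replicate 1). HSPA6, a strictly stress-inducible HSP70, read 7.77 and 7.88 in T47D and 7.96 and 9.12 in MDA-MB-231 with shCtrl, and 7.60 and 7.88 against 13.74 and 12.23 with shXBP1. Its MDA-MB-231 replicates lay further apart than those of T47D in both conditions, yet the knockdown arrays of the lines were far from overlapping. The difference of 5.25 (SE 0.50, adjusted p = 4.68e-05) stood against 0.72 (adjusted p = 0.288) with shCtrl, a change of 4.53 (SE 0.71, adjusted p = 0.00318). HSPA2, another member of the HSP70 family, appeared at 2.54, the cochaperones DNAJB4 and DNAJA1 widened from 1.87 to 3.74 and from 1.47 to 2.59, and the small chaperone CRYAB reversed from -0.98 to 0.98 (adjusted p = 0.00537). DNAJB4 read 10.92 and 9.90 on the MDA-MB-231 knockdown arrays, and replicate 1 was the higher in HSPA6 and CRYAB as well (7.75 and 7.04). The HSPA6 promoter is shown because it carries 2 pairs of the half-site that heat shock factors read, GAANNTTC, in capitals. It lies at chr1:161524290-161524589, plus strand, in RefSeq on GRCh38.p14, with matches at positions -180 and -69 from the gene's start.
HSPA6: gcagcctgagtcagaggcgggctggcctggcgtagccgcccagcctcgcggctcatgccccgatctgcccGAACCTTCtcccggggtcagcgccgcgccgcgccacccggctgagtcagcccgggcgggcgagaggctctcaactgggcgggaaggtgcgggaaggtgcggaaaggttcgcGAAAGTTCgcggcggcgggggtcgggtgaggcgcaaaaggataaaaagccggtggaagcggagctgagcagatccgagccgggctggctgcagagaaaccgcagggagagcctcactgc
These letters stood in 6 of 16 promoters of the list (37.5%) and in 5.56% of those of all tested genes. Where a difference had appeared with a called change, they stood in 16 of 424 promoters (3.77%) towards MDA-MB-231 and in 21 of 427 (4.92%) towards T47D.

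Interferon-stimulated genes split. Of 31 measured 16 were higher in MDA-MB-231 and 10 in T47D after knockdown, against 13 and 9 with shCtrl, and the change was called towards MDA-MB-231 in 15 (48.4%) and towards T47D in 2 (6.45%). Besides CCL5, GBP3, a guanylate-binding GTPase of cell defence, read 5.12 and 5.41 with shCtrl and 8.26 and 8.36 with shXBP1 in MDA-MB-231, and between 3.83 and 4.35 on the 4 T47D arrays. T47D stayed near the bottom of the scale, and the difference widened from 1.26 to 4.13 (SE 0.16, adjusted p = 4.17e-07), with a change of 2.87 (SE 0.23, adjusted p = 0.00029). OASL, of the family of antiviral oligoadenylate synthetases, widened from 1.08 to 3.97, and IFI44 from 3.37 (1.96 as a mean over probe sets) to 5.30. IFIT2 (0.41 to 2.47) and ISG15 (1.62 to 3.39), named after their values were seen, had the same course, whereas OAS1 (3.16 and 3.08) and MX1 (-3.15 and -2.89), also named so, showed no called change. The promoter of GBP3 carries the interferon-stimulated response element in its short form, GAAA, any 2 bases and GAAA, on the strand opposite to the one printed, in capitals, from position 3 after the gene's start. The promoter lies at chr1:89022817-89023116, minus strand, in RefSeq on GRCh38.p14.
GBP3: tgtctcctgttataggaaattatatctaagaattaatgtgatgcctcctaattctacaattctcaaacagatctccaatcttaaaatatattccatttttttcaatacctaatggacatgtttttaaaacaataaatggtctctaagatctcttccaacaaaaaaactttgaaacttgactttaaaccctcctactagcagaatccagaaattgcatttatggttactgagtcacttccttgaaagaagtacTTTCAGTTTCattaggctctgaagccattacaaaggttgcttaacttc
The element was found in 18 of 22 promoters of the list (81.8%) and in 2.94% of those of all tested genes. Among appeared differences with a called change it stood in 14 of 424 promoters (3.30%) towards MDA-MB-231 and in 18 of 427 (4.22%) towards T47D.

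**Figure D4:**
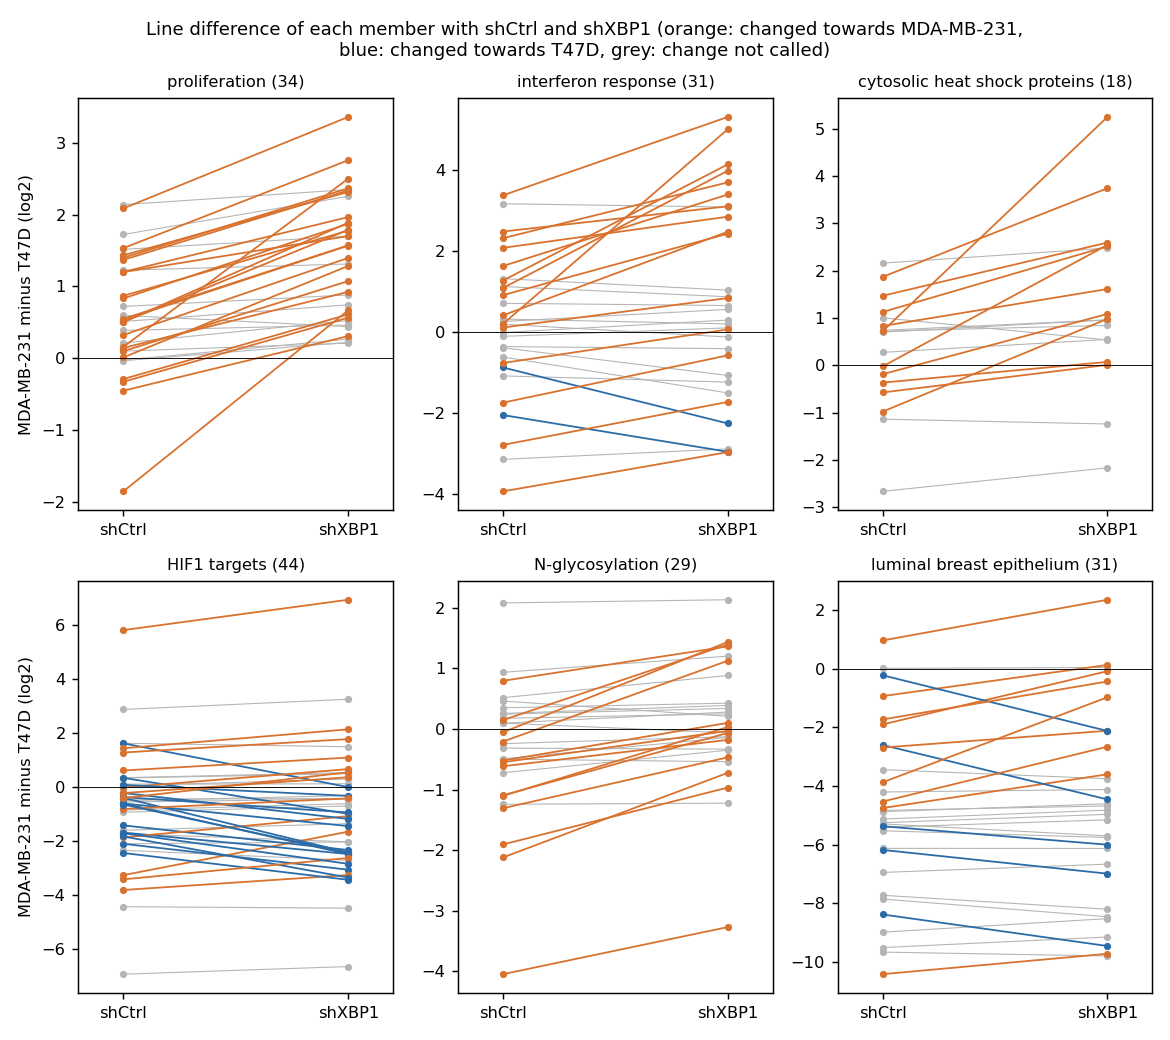
Each line joins the line difference of 1 gene (MDA-MB-231 minus T47D, log2) with shCtrl on the left and shXBP1 on the right, for 6 gene lists with the number of measured members in brackets. Orange lines changed towards MDA-MB-231, blue lines towards T47D and grey lines had no called change, and the panels differ in the range of the y axis. All 22 called proliferation genes slope upwards, while 17 of the 31 luminal markers had no called change.

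Inflammatory and immediate early genes changed in both directions. Of 25 genes of NF-kB and inflammatory cytokines 13 were higher in MDA-MB-231 and 9 in T47D after knockdown, and the change was called in 4 towards MDA-MB-231 (16%) and 8 towards T47D (32%), the latter 4 without T47D shXBP1 replicate 2 and 5 without T47D shCtrl replicate 1 or either MDA-MB-231 shXBP1 array. The cytokine IL6 read 11.38 and 11.18 in MDA-MB-231 after knockdown and 9.89 and 9.84 before, and 4.86 to 5.24 in T47D. Its difference widened from 4.95 to 6.08 (SE 0.10, adjusted p = 1.14e-08). The chemokine CXCL8 narrowed from 5.12 to 3.43, with a rise in T47D (0.67) and a fall in MDA-MB-231 (-1.01), and TNFAIP3, an inhibitor of NF-kB, narrowed from 2.68 to 1.38. Of 23 immediate early genes the change was called in 8 towards MDA-MB-231 (34.8%) and 7 towards T47D (30.4%). The early transcription factors EGR1 and FOSB widened from 4.23 to 6.75 and from 1.08 to 3.13 by a rise in MDA-MB-231 (2.04 and 2.00), while FOSL1 stayed, at 4.19 and 3.96.

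Lipid synthesis, respiration and lysosomes leaned towards MDA-MB-231. Of 21 sterol and fatty acid genes the change was called in 11 towards MDA-MB-231 (52.4%) and 2 towards T47D (9.52%), the former 6 without T47D shXBP1 replicate 1 and 7 without T47D shXBP1 replicate 2. MSMO1, a demethylase of sterol synthesis, narrowed from -1.93 to -0.61 and the fatty acid elongase ELOVL6 appeared at 1.07, whereas SC5D, a late sterol desaturase, widened towards T47D from -2.66 to -3.99. Averaged over probe sets, SC5D went from -1.55 to -2.08, and ELOVL6 had a called difference with shCtrl (-0.41), so that it reversed. Of 29 genes of oxidative phosphorylation 17 were higher in MDA-MB-231 after knockdown and 11 before, with 6 called changes, all towards MDA-MB-231 (20.7%). NDUFA9, a subunit of complex I, led with 1.73 and 2.44. Of 23 autophagy and lysosome genes the change was called in 9 towards MDA-MB-231 (39.1%) and 4 towards T47D (17.4%). The first count was 5 without T47D shXBP1 replicate 2, and the second was 2 when either T47D shXBP1 array, MDA-MB-231 shCtrl replicate 1 or MDA-MB-231 shXBP1 replicate 2 was left out. The lysosomal protease CTSD narrowed from -2.73 to -1.38 and CTSB lost its difference (0.07 after knockdown, adjusted p = 0.555), with a change of 1.07. As a mean over its 5 probe sets CTSB reversed instead, from -0.42 to 1.01 (adjusted p = 1.14e-05). Of 23 cytosolic ribosomal proteins 2 were higher in MDA-MB-231 and 3 in T47D after knockdown, none by more than the 0.28 of RPS15 (0.81 as a mean over probe sets), and 0 or 1 of these calls was left when any 1 of the knockdown arrays was left out.

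In the EGF family the receptors kept their places. ERBB3 differed by -6.99 (-6.18 before, a called change) and EGFR by 2.52 (2.79 before), and of 13 members 4 were higher in MDA-MB-231 (30.8%, all genes 25.9%) and 7 in T47D (53.8%, all genes 25.0%) after knockdown, the former 2 without either T47D shXBP1 array or MDA-MB-231 shXBP1 replicate 1. Among ligands the differences moved in opposite directions, with EREG as above and TGFA, which encodes transforming growth factor alpha, narrowing from -2.76 to -0.93 as it fell in T47D by -1.49 (adjusted p = 0.000175). As means over probe sets the differences after knockdown were -2.85 for ERBB3, 1.34 for EGFR and -0.46 for TGFA, and the change of ERBB3 was not called (-0.33, adjusted p = 0.105).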

How the data were processed

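Per the submitters' processing notes, the authors made the deposited log2 values from Affymetrix arrays by RMA (background correction, quantile normalization and summary per probe set) with affy 1.30.0. The sources used here do not name the arrays that entered each normalization. Of 54675 probe sets 41091 carried 1 gene symbol in the platform annotation, 1801 several and 11715 none. Each gene was read from its brightest single-symbol probe set over the 8 arrays. Limma 3.58.1 in R 4.3.3 fitted the 4 group means to all 19775 genes (lmFit and eBayes, 7.61 moderated degrees of freedom), with contrasts for the line difference after knockdown, without it and for the change, each with Benjamini-Hochberg adjustment and a threshold of 0.05. With 2 arrays against 2, an exact permutation test of 1 gene cannot give a p under 0.333. The code was tested on simulated data. Genes were named by rank: XBP1, the 10 largest differences per direction after knockdown, the 8 largest changes among vanished and among appeared differences, 6 among reversed, 4 among widened and narrowed, up to 4 and 3 members per list, and a set of genes chosen by name. The members and the 22 gene lists were chosen with earlier results of these data known. Promoters run from 250 bases before to 50 after the gene's start, in RefSeq on GRCh38.p14, and 15384 tested genes had one. Alternatives left out each array, added the replicate number as a block, averaged probe sets, tested every probe set, left out dim genes, normalized again, used a trended robust fit or stricter thresholds, or fitted the 4 knockdown arrays alone.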

Additional observations from a re-analysis of the deposited data

Results flagged for a closer look

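The line difference after XBP1 knockdown ran against that without it, with a called test of the change by limma, in 480 genes. Among the named ones the change towards MDA-MB-231 was 4.54 for CGA, 3.27 for S100A14, 3.23 for FN1, 3.05 for IER5, 2.65 for SSR1 and 2.58 for EPAS1. Towards T47D it was -3.47 for FZD5, -3.46 for CPEB2, -2.79 for NACC2, -2.73 for ZBTB34, -2.72 for HEY2 and -2.71 for KLF3. SSR1 and NACC2 each had a probe set called the other way after knockdown.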

How the results depend on the processing

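At a fold of at least 2 the calls were 4576 after knockdown, 4306 without it and 1777 for the change, with 3164 differences remaining, 1133 vanished (425 with a called change), 1403 appeared (530 with a called change) and 9 reversed. At an adjusted p under 0.01 the change was called in 2713 genes, 591 differences had vanished with a called change and 224 had reversed. Tested one by one, 18886 of 41091 probe sets were called after knockdown, and 45.7% of the called changes ran towards MDA-MB-231, against 52.6% of genes. Leaving out single arrays gave 318 to 489 reversals, the lowest without T47D shXBP1 replicate 2. With the replicate number as a block there were 9862 calls after knockdown and 4466 changes. Deviations of arrays with the same number correlated at -0.069 to 0.038 between groups. Whether same-numbered arrays shared a culture or a batch was not tested. Among called differences of the named genes, the mean over probe sets gave the opposite sign for DERL1 after knockdown (-0.98), SEC11C without knockdown (-0.34) and SLC2A1 after knockdown (0.070). Of the recomputed values of the named genes, 8680 kept their side of the threshold, 307 lost a call and 110 gained one. Another 3, called in the main fit, turned in sign. The sign of values without a call in the main fit was not compared. Signal near background limits the dim genes: 892 of 6269 genes under the median of all probe sets in both lines were called after knockdown.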
